A study of Mus musculus with 6 samples.

Results

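The set described here holds every covered cytosine at the centre of the NSUN6-type motif CTCCA. This central cytosine carries C at -2, T at -1, C at +1 and A at +2 on the RNA strand, and is called a motif cytosine below. A cytosine was taken when it lay on a nuclear chromosome, was called methylated in the lists of all 6 libraries and was covered by at least 20 reads in each, whatever its level. These criteria left 1378 CTCCA cytosines among 212275 cytosines of any sequence, a share of 0.649%. For comparison, 519 cytosines differed from the motif only by G at +2 (CTCCG) and 1325 only by T at +2 (CTCCT).

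The samples were wild-type C57BL/6 mouse cortical neurons, taken from embryos at E16.5 with male and female tissue pooled, and cultured for 7 days. All cultures, including those of 0 h, had been silenced overnight from day 6 with 1 µM TTX (tetrodotoxin, a sodium channel blocker) and 100 µM DL-AP5 (an NMDA receptor blocker). Depolarization with 55 mM KCl then lasted 0 h (none), 2 h or 6 h, and poly(A) RNA of 2 replicates per time point was treated with bisulfite and sequenced. The study's methods call the replicates biological, and neither they nor the labels say whether these were separate dissections or cultures. The lists held from 1556844 to 2370983 nuclear cytosines per library at a median coverage of 324 to 480 reads. Among cytosines covered by many reads and methylated at under 1%, unconverted reads made up 0.0820 to 0.0852% in 5 libraries and 0.114% in replicate 1 of 6 h.

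NSUN6 is an RNA methyltransferase that places 5-methylcytosine (m5C) near the 3′ end of certain tRNAs. In mRNA it is known for methylating the C that opens the motif CUCCA, often in the 3′ UTR and within a small hairpin. The cytosine measured here is the central base of the motif, so the levels below are not those of the known NSUN6 target base. NSUN2, the other main mRNA m5C enzyme, prefers G-rich sequence on the 3′ side of its target. Bisulfite turns unmethylated cytosine into uracil, which is read as T, so the methylation level of a site is the share of reads that still show C.

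The windows that carry the results are printed here, so that what the methylated cytosines share outside the motif can be read. Each has 21 bases, 5′ to 3′ on the RNA strand in DNA letters, with the motif in capitals and the measured cytosine in its middle. They were taken from the deposited lists, and coordinates are those of GRCm38 (mm10). The first 8 are the 5 motif cytosines at a mean level of 10% or more and the 3 just below that level.
Zbtb4, 3′ UTR, chr11:69779607-69779627, plus strand: tctgtcttCTCCAgggaatgg
Akt2, 3′ UTR, chr7:27638403-27638423, plus strand: ccactagcCTCCAagagggtg
Ywhaz, 3′ UTR, chr15:36771157-36771177, minus strand: ctttctggCTCCActcagtgt
Sipa1l1, coding sequence, chr12:82437799-82437819, plus strand: ttcttcacCTCCAgggcttcg
Gng2, 3′ UTR, chr14:19873391-19873411, minus strand: acttggatCTCCAaagagctt
Slc37a3, 3′ UTR, chr6:39335552-39335572, minus strand: ccgtggctCTCCAggctctgc
6030458C11Rik, 3′ UTR, chr15:12810080-12810100, minus strand: tggatcttCTCCAgacttgtt
Kif3b, 3′ UTR, chr2:153331756-153331776, plus strand: tacttggtCTCCAggtacatt
The next 5 are lower, and were added after their values were seen because they stayed at 1% or more in every library while no listed cytosine around them reached a mean of 1%. For Per1 none was listed there. Here and below, a neighbour counts as listed when it was covered by at least 20 reads in at least 3 libraries.
Per1, coding sequence, chr11:69102861-69102881, plus strand: cctgggggCTCCAgtacttct
Afg3l1, coding sequence, chr8:123494909-123494929, plus strand: agctcttaCTCCAggcttcac
Kif5c, coding sequence, chr2:49700991-49701011, plus strand: ctcggattCTCCAggactctc
Wsb2, 3′ UTR, chr5:117377796-117377816, plus strand: caagcgggCTCCAgagcctct
Mllt1, 3′ UTR, chr17:56892979-56892999, minus strand: ccactgtcCTCCAgagccact

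Nearly all motif cytosines read as unmethylated. The median of their mean levels over the 6 libraries was 0.115%, with quartiles of 0.0853% and 0.173%, and 1330 of the 1378 (96.5%) lay below 1%. Of the rest, 48 reached 1%, 23 reached 2%, 10 reached 5%, 5 reached 10% and 1 reached 20%. The share at 10% or more was 0.363% (95% Wilson interval 0.155 to 0.847%, counting error only). The 1378 cytosines lay in 769 genes, with up to 20 in the same gene, so neighbours in a transcript share their reads in part.

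Coverage set which motif cytosines could be seen, because the lists name a cytosine only when at least 1 read kept its C. An unmethylated cytosine in a weakly covered transcript could thus go unlisted, and the rule favours methylated cytosines among the weakly covered members. How far it accounts for their levels was not tested. At least 3 libraries covered 10260 listed CTCCA cytosines with 20 reads or more, against the 1378 that all 6 did. Among the 1102 members with at least 1000 reads in every library, 2 reached 2% (Kif5c and Wsb2) and 0 reached 5%. Among the 256 with a lowest coverage of 100 to 999 reads, 6 reached 2%. Among the 20 with 20 to 99 reads, 15 reached 2% and all 5 of the members at 10% or more were found. The shares given here are shares of listed cytosines and not of all CTCCA cytosines in the neuronal transcriptome.

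**Figure D1:**
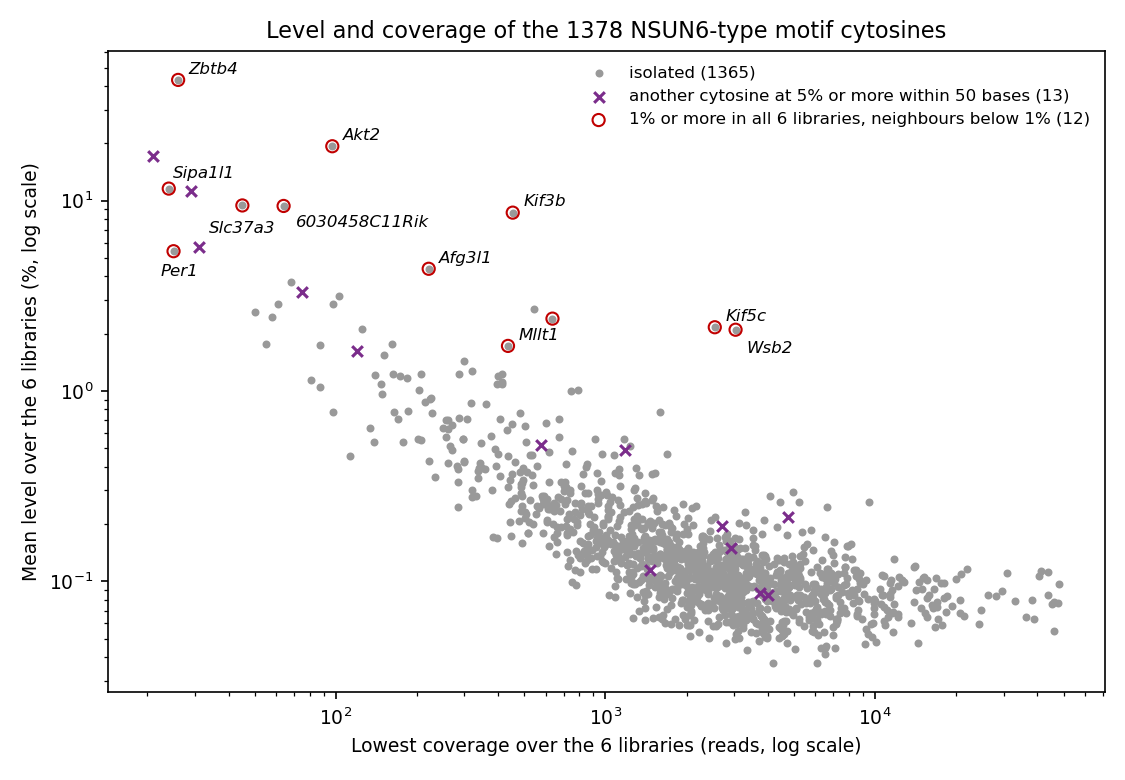
Mean methylation level over the 6 libraries (vertical axis, %, log scale) against the lowest coverage over the 6 libraries (horizontal axis, reads, log scale) for the 1378 NSUN6-type motif cytosines. Most points form a band that falls with coverage to about the median level of 0.115%, and the 12 circled cytosines, of which 11 are named and which include Zbtb4 at 43.0%, Kif3b at 8.64% and Wsb2 at 2.10%, lie above it.

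The base at +2 was compared in the same libraries, to ask whether the levels followed the base that completes the motif. Summed over the members below 5%, the unconverted share was 0.103% ± 0.000683 (SD, n = 2) before KCl, 0.0983% ± 0.00400 after 2 h and 0.122% ± 0.0273 after 6 h. The higher value at 6 h came from replicate 1, which had 0.142% against 0.103% in replicate 2. In that library the CTCCG and CTCCT cytosines were also at their highest, with 0.132% and 0.153%. The median mean level was 0.110% for CTCCG and 0.122% for CTCCT.

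At 10% or more, the CTCCA share per library was 0.218% and 0.290% before KCl, 0.508% and 0.435% after 2 h and 0.435% and 0.290% after 6 h. The CTCCG share was 0.385% and 0.193% before KCl, 0.385% and 0.385% after 2 h and 0.385% and 0.193% after 6 h. CTCCA was higher in 5 of 6 libraries, by 0.0417 percentage points on average (SD 0.107, n = 6 libraries), and this was within the spread between libraries (exact two-sided sign-flip permutation test, p = 0.375, Benjamini-Hochberg adjusted p = 0.375). The direction turned at a level threshold of 5%, with -0.101 points. The difference passed the threshold with at least 50 reads (0.0893 points) and for cytosines covered in at least 3 libraries (0.050 points). Each had an adjusted p of 0.0312 in the exact test. With at least 50 reads the mean shares were 0.122% for CTCCA and 0.0323% for CTCCG. Only 3 CTCCA cytosines had a mean level of 5% or more at that coverage, so few cytosines carried this result. The CTCCT share ran from 1.13 to 1.43% and was higher than the CTCCA share in 6 of 6 libraries, with a mean difference of -0.933 percentage points (SD 0.118). The exact sign-flip permutation test gave p = 0.03125, the smallest that 6 libraries allow, and an adjusted p of 0.0625. These tests speak of repeatability over libraries that read the same cytosines, and not of the draw of cytosines.

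The order of CTCCA and CTCCT depended on cytosines that lay beside other unconverted cytosines. All 16 of the CTCCT cytosines with a mean level of 10% or more had another listed cytosine at 5% or more within 50 bases, and 14 of them lay in windows with at least 20 of 21 bases C or T. Of the 5 CTCCA cytosines at that level, 2 had such a neighbour and 0 lay in such a window. Among isolated cytosines, those without a neighbour at 5% or more, 3 of 1365 CTCCA cytosines reached 10% (0.220%, 0.0748 to 0.644%), 1 of 512 CTCCG and 0 of 1285 CTCCT, which allows a share of up to 0.233% by a limit of 3 counts (Wilson upper bound 0.298%). At 2% or more the isolated counts were 19 CTCCA (1.39%, 0.893 to 2.16%), 9 CTCCG (1.76%, 0.927 to 3.31%) and 8 CTCCT (0.623%, 0.316 to 1.22%). Per library, the isolated CTCCA share at 10% or more was above that of CTCCT in 6 of 6 libraries, by 0.243 percentage points on average (exact sign-flip permutation p = 0.03125, adjusted p = 0.0625). Against isolated CTCCG the mean difference was 0.00820 points (p = 0.844 in the same exact permutation test).

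**Figure D2:**
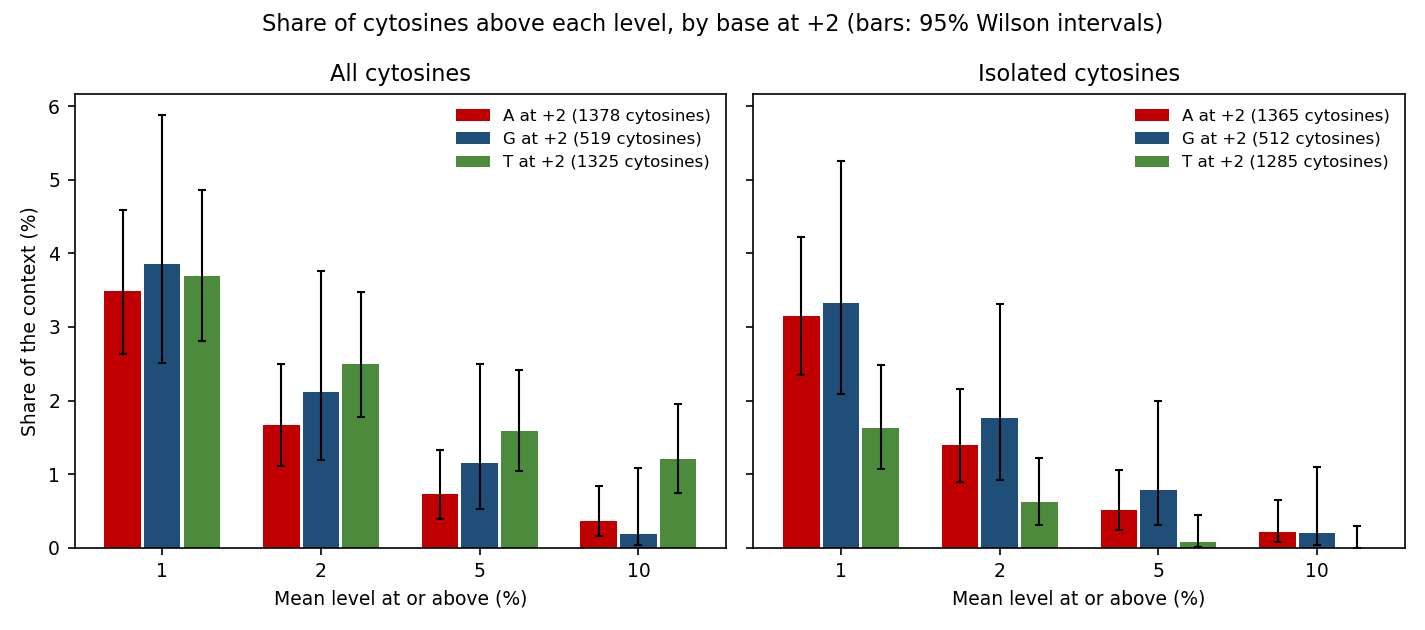
Share of cytosines (vertical axis, %) with a mean level at or above 1, 2, 5 and 10% (horizontal axis), for motif cytosines (A at +2) and for those with G or T at +2. Bars give the share and whiskers the 95% Wilson interval. With all cytosines at 10% or more, T at +2 stands highest (1.21% against 0.363% for the motif), while among isolated cytosines it falls to 0.

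Set among all 256 sequences that can surround a cytosine at -2, -1, +1 and +2, CTCCA was not at the top. Of isolated cytosines of any sequence 1.22% reached 2%, against 1.39% for CTCCA, which ranked 76th. At 10% or more the shares were 0.156% and 0.220%, and CTCCA ranked 61st. Over all cytosines, isolated or not, CTCCA lay below the share of any sequence, with 1.67% against 2.12% at 2% or more (101st) and 0.363% against 0.670% at 10% or more (86th).

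The position of the motif cytosines in their transcripts had no part in their choice. Of the 1378, 983 lay in coding sequence, 353 in 3′ UTRs and 28 in 5′ UTRs of GENCODE transcripts, with 11 in noncoding exons, 2 antisense to a gene and 1 outside genes. In 3′ UTRs 14 of 353 reached 2% (3.97%, 2.38 to 6.55%), against 9 of 983 in coding sequence (0.916%, 0.482 to 1.73%) and 0 of 28 in 5′ UTRs. The median lowest coverage was 1431 reads in 3′ UTRs and 2602 in coding sequence, and the part of this gap in the difference was not tested.

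In the more methylated members the base at +3, just outside the motif, was mostly G. Among isolated motif cytosines at 2% or more, 15 of 19 had G there (78.9%, 56.7 to 91.5%), as opposed to 484 of the 1330 below 1% (36.4%, 33.8 to 39.0%). Turned the other way, 15 of 509 isolated CTCCA cytosines followed by G reached 2% (2.95%, 1.79 to 4.80%), and 4 of 856 followed by another base did (0.467%, 0.182 to 1.2%). Within the weakly covered members, with fewer than 1000 reads in some library, the shares were 12.7% (13 of 102) and 2.38% (4 of 168). The printed windows show the same letter: of the 13, all but Akt2, Ywhaz and Gng2 read on with g after the capitals. A G at +3 was also the more methylated class among isolated cytosines of any sequence, with 2.12% of 58658 against 0.872% of 150427 at 2% or more, so it was not particular to CTCCA. The feature was noticed in these data, and its values are a description.

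**Figure D3:**
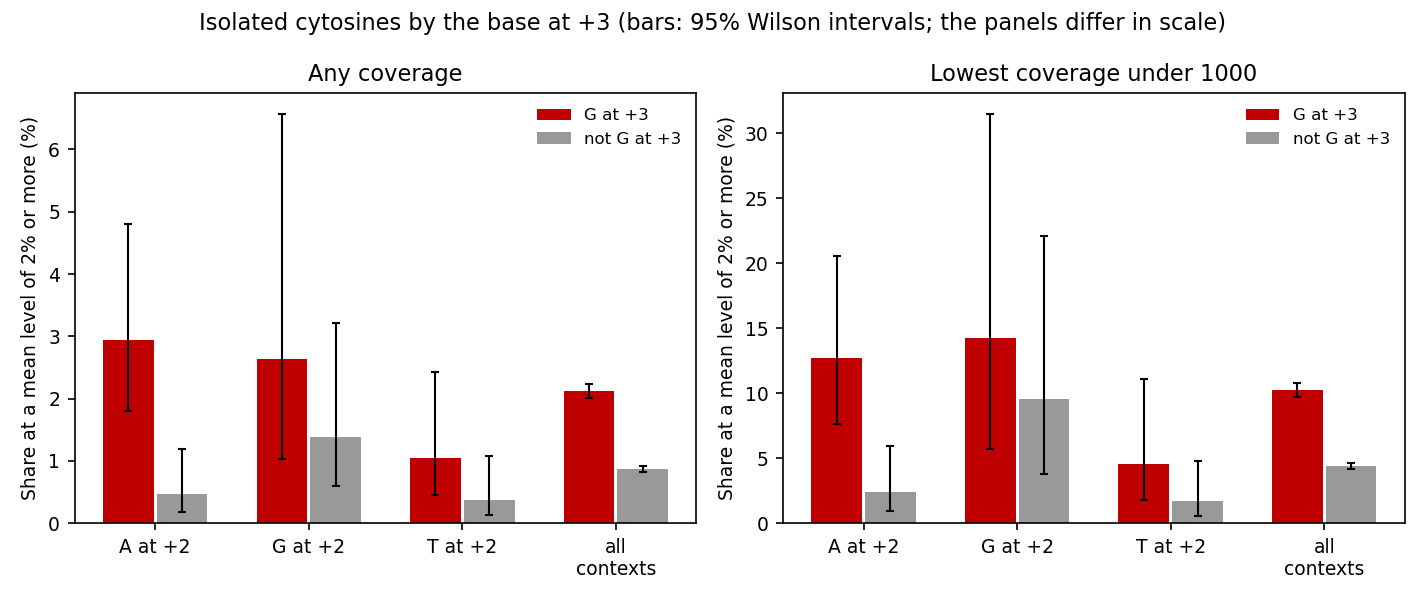
Share of isolated cytosines at a mean level of 2% or more (vertical axis, %) by context and by the base at +3, with 95% Wilson intervals, at any coverage (left) and for cytosines with a lowest coverage under 1000 reads (right, other scale). For the motif the bars are 2.95% with G and 0.467% without on the left, and over all contexts 2.12% and 0.872%.

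Pairing was predicted from 61-base windows of the spliced transcript. The median probability that the cytosine is paired at 37 °C was 0.824 in the 19 isolated members at 2% or more and 0.640 in the 1326 below 1% for which a window could be folded. At 70 °C, near the temperature of the bisulfite step, it was 0.672 and 0.441. The quartiles overlapped widely, at 0.325 and 0.938 against 0.0863 and 0.965 at 37 °C. At 70 °C they were 0.314 and 0.789 against 0.143 and 0.779. Paired cytosines can resist bisulfite, and the part of pairing in these levels was not tested. Zbtb4 and Kif3b had pairing probabilities of 0.997 and 0.985 at 37 °C, whereas Slc37a3 and Itpk1 had 0.0696 and 0.000618. Of the m5C machinery genes Nsun2, Nsun6, Trdmt1, Alyref and Ybx1, only Ybx1 held members, 2 cytosines at 0.0527% and 0.0844%.

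The listed neighbours of a site give the conversion measured on the same stretch of RNA. Of the 1378 members, 20 were at 1% or more in every library, and 12 of these had every listed cytosine within 50 bases below 1% (0.871%, 0.499 to 1.52%). The same held for 8 of 519 CTCCG cytosines (1.54%, 0.783 to 3.01%) and 3 of 1325 CTCCT (0.226%, 0.0770 to 0.664%). Among the 12, 8 lay in 3′ UTRs and 11 had G at +3. For Zbtb4, Sipa1l1, Slc37a3, 6030458C11Rik and Per1 no other cytosine in that window was listed with 20 reads or more in at least 3 libraries. Full conversion there cannot be told apart from low coverage.

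The deep sites give the firmest levels. Kif5c, a neuronal heavy chain of kinesin-1, had between 2544 and 3806 reads per library at its site in coding exon 10 of 26, and the highest of its 23 listed neighbours was at 0.220%. Its level was 2.26% and 1.65% before KCl, 2.36% and 2.16% after 2 h and 1.83% and 2.70% after 6 h. The replicates of the 3 time points overlapped. Wsb2, which encodes a WD-repeat protein with a SOCS box, had 3038 to 3996 reads, with 23 listed neighbours at up to 0.202%. Its level was 1.90% and 2.17% before KCl, 2.31% and 1.97% after 2 h and 2.12% and 2.10% after 6 h, again with overlapping time points. Mllt1 and Afg3l1 were covered less deeply, with a lowest coverage of 435 and 221 reads. Mllt1, which encodes a reader protein of transcription elongation complexes, stayed between 1.15 and 2.46%. Afg3l1, a mitochondrial protease subunit whose site the lists assign to the overlapping Gm20388, stayed between 2.79 and 5.43%.

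Zbtb4, a zinc finger repressor that binds methylated DNA, carried the highest level, 43.0% on average, in the 3′ UTR in exon 4 of 4. It was 49.1% and 43.2% before KCl, 48.1% and 64.9% after 2 h and 25.9% and 26.9% after 6 h. Coverage was 26 to 57 reads, and the 6 h replicates lay below all others. Akt2, a kinase of insulin signalling, averaged 19.3% at 97 to 301 reads, and the highest of its 4 listed neighbours was at 0.444%. Its site was at 11.7% and 20.6% before KCl, 26.3% and 25.6% after 2 h and 15% and 16.6% after 6 h, so that the 2 h replicates were above all others.

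Sipa1l1, a GTPase-activating protein of the postsynaptic density, averaged 11.6% at 24 to 68 reads and was the only member at 10% or more in coding sequence. It read 5.88% and 4.17% before KCl, 21.4% and 13.2% after 2 h and 16.1% and 8.51% after 6 h, on 2 and 1 unconverted reads at 0 h. Ywhaz, a 14-3-3 adaptor protein, averaged 17.2% but lay among 29 other cytosines at 5% or more, up to 20.2%. Its 6 h replicates of 29.2% and 6.67% enclosed all other libraries, at 21 to 50 reads. Gng2, a G protein gamma subunit, averaged 11.2% among 14 such neighbours, with 7.14% and 6.06% before KCl, 12.8% and 5.88% after 2 h and 20.7% and 14.6% after 6 h. Its 6 h replicates were above all others, and those of Sipa1l1 at 0 h were below all others.

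Of the 3 members just below 10%, Slc37a3, a solute carrier, stood at 9.43%, 6030458C11Rik at 9.37% and Kif3b, a motor subunit of kinesin-2, at 8.64%. Slc37a3 ran from 4.41% in a library of 0 h to 22.0% in a library of 6 h, and its time points overlapped. The 6030458C11Rik site read 3.37% and 6.27% before KCl, 16.8% and 18.7% after 2 h and 4.82% and 6.25% after 6 h, with both 2 h replicates above the rest. Kif3b read 7.96% and 7.08%, then 11.4% and 10.4%, then 8.62% and 6.37%, on 453 to 732 reads, with the highest of its 19 listed neighbours at 0.570%. Its 2 h replicates too were above all others.

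The time course was tested on all cytosines with a mean level of 5% or more, of which 2211 were of any sequence and 10 were CTCCA. Fisher's exact test was run on the reads summed over replicates, with Benjamini-Hochberg adjustment over the 2211, and a call needed an adjusted p of 0.05 or less. From 0 h to 2 h, 3 of the 10 members were called, all higher at 2 h, against a background of 14.5% of all cytosines called and 13.9% called higher. The 6030458C11Rik site rose by 12.9 percentage points (from 4.82% ± 2.05 to 17.8% ± 1.31, SD, adjusted p = 9.55e-07 by Fisher's exact test). Akt2 rose by 9.78 points (from 16.1% ± 6.32 to 25.9% ± 0.513, adjusted p = 0.00421) and Kif3b by 3.39 points (adjusted p = 0.0368), both by the same exact test. Sipa1l1 differed by 12.3 points with an adjusted p of 0.232.

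From 2 h to 6 h, 4 of the 10 members were called, all lower at 6 h, against 11.3% of all cytosines called and 8.23% called lower. Zbtb4 fell by 30.1 percentage points (adjusted p = 0.0112), the 6030458C11Rik site fell by 12.2 (adjusted p = 0.0116), Akt2 fell by 10.1 (adjusted p = 0.00442) and Kif3b fell by 3.42 (adjusted p = 0.0221), by Fisher's exact test. For Akt2, 6030458C11Rik and Kif3b the 6 h mean was within 1 percentage point of the 0 h mean. From 0 h to 6 h, 0 of the 10 members were called by Fisher's exact test, where 10.9% of all cytosines were. At an unadjusted p under 0.05, 2 members passed, and the Cochran-Mantel-Haenszel test and limma also called 0. Zbtb4 differed by -19.8 points there with an adjusted p of 0.141.

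Calls were common among isolated cytosines of any sequence. When the 708 isolated cytosines alone were tested, 48.6% were called between 0 h and 2 h and 32.2% between 2 h and 6 h, beside 4 of 7 isolated members in each. From 0 h to 6 h the shares were 33.5% and 0 of 7. Fisher's exact test on summed reads leaves out the spread between replicates. On data simulated for 0 h against 2 h it called many unchanged sites once replicates were made to vary beyond read sampling by an amount not measured here, and limma found few or none of the changed ones. The other comparisons were not simulated. With limma, which uses that spread, 0 of the 2211 cytosines and 0 members were called in any comparison, and 3, 3 and 2 members had an unadjusted p under 0.05 from 0 h to 2 h, from 0 h to 6 h and from 2 h to 6 h, in that order. Without replicate 1 of 0 h, the Akt2 difference from 0 h to 2 h was 5.31 points (adjusted p = 0.928, Fisher's exact test), and over the 4 libraries left out in turn it ran from 5.31 to 14.3 points. Kif3b also lost its call there without that library, and without each of the other 3 libraries in turn. From 2 h to 6 h, Zbtb4 lost its call without replicate 2 of 2 h and without either replicate of 6 h. In that comparison 6030458C11Rik lost it without replicate 2 of 2 h or replicate 1 of 6 h, Akt2 without replicate 1 of 2 h or of 6 h, and Kif3b without replicate 1 of 2 h or replicate 2 of 6 h.

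Per1, a circadian clock gene that neurons induce upon activity, had its highest levels before KCl. Its site in coding exon 10 of 23 read 9.52% and 12% before KCl, 1.08% and 3.12% after 2 h and 1.48% and 5.31% after 6 h. Both 0 h replicates were above all others, and the difference to 2 h was -8.66 percentage points with an adjusted p of 0.0573 by Fisher's exact test. Among all cytosines tested, 0.633% were called lower at 2 h. The adjusted p was 0.0201 when only isolated cytosines were tested and 0.0221 in the Cochran-Mantel-Haenszel test, blocked by replicate number. It was 0.299 in limma, 0.174 in limma with the same block, 0.0634 with sites down to 2% tested, and 0.0727 to 0.408 when a library was left out of Fisher's exact test. Coverage of the site went from 42 and 25 reads before KCl to 93 and 96 after 2 h and 135 and 226 after 6 h, while the unconverted reads numbered 4 and 3, 1 and 3, and 2 and 12. Per1 was named after its values were seen.

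Itpk1, an inositol phosphate kinase gene, has its site in the 3′ UTR and read 0.531% and 1.66% before KCl, 3.76% and 4.38% after 2 h and 3.30% and 2.61% after 6 h, on 542 to 805 reads. With sites down to 2% tested, where 12.7% of 4505 cytosines were called, the difference to 2 h was 2.97 percentage points with an adjusted p of 1.95e-05 by Fisher's exact test on summed reads. The difference from 0 h to 6 h, where 9.99% were called, was 1.86 points with an adjusted p of 0.00612 by the same exact test. The highest of its 21 listed neighbours was at 0.525%. Both replicates of 0 h were below all others, and Itpk1 was named after its values were seen.

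Coverage of the 6030458C11Rik site went from 356 and 255 reads before KCl to 107 and 91 after 2 h and 83 and 64 after 6 h. The unconverted reads numbered 12 and 16, 18 and 17, and 4 and 4, so the site had its lowest coverage at 6 h, when its level was again near that of 0 h. A change of level in such bulk RNA cannot be told apart from a change in the number of transcripts made or kept without the mark, nor in the cells that supply them.

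At the coverage and level that the study asked of a site, 20 reads, 10% and 6 unconverted reads, few members passed in replicate 1 as well as replicate 2. At 0 h these were Zbtb4 and Akt2, at 2 h Zbtb4, Akt2, Sipa1l1, 6030458C11Rik, Ywhaz and Kif3b, and at 6 h Zbtb4, Akt2 and Gng2. Of the CTCCG cytosines 1 did so before KCl, 1 after 2 h and 0 after 6 h. Of the CTCCT cytosines 15, 16 and 15 did so in that order, of which 0, 1 and 0 were isolated. The study also filtered on unconverted bases per read, signal to noise, adjusted p and predicted structure. Those filters were not applied here, so passing here is not the study's own call of a site.

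**Figure D4:**
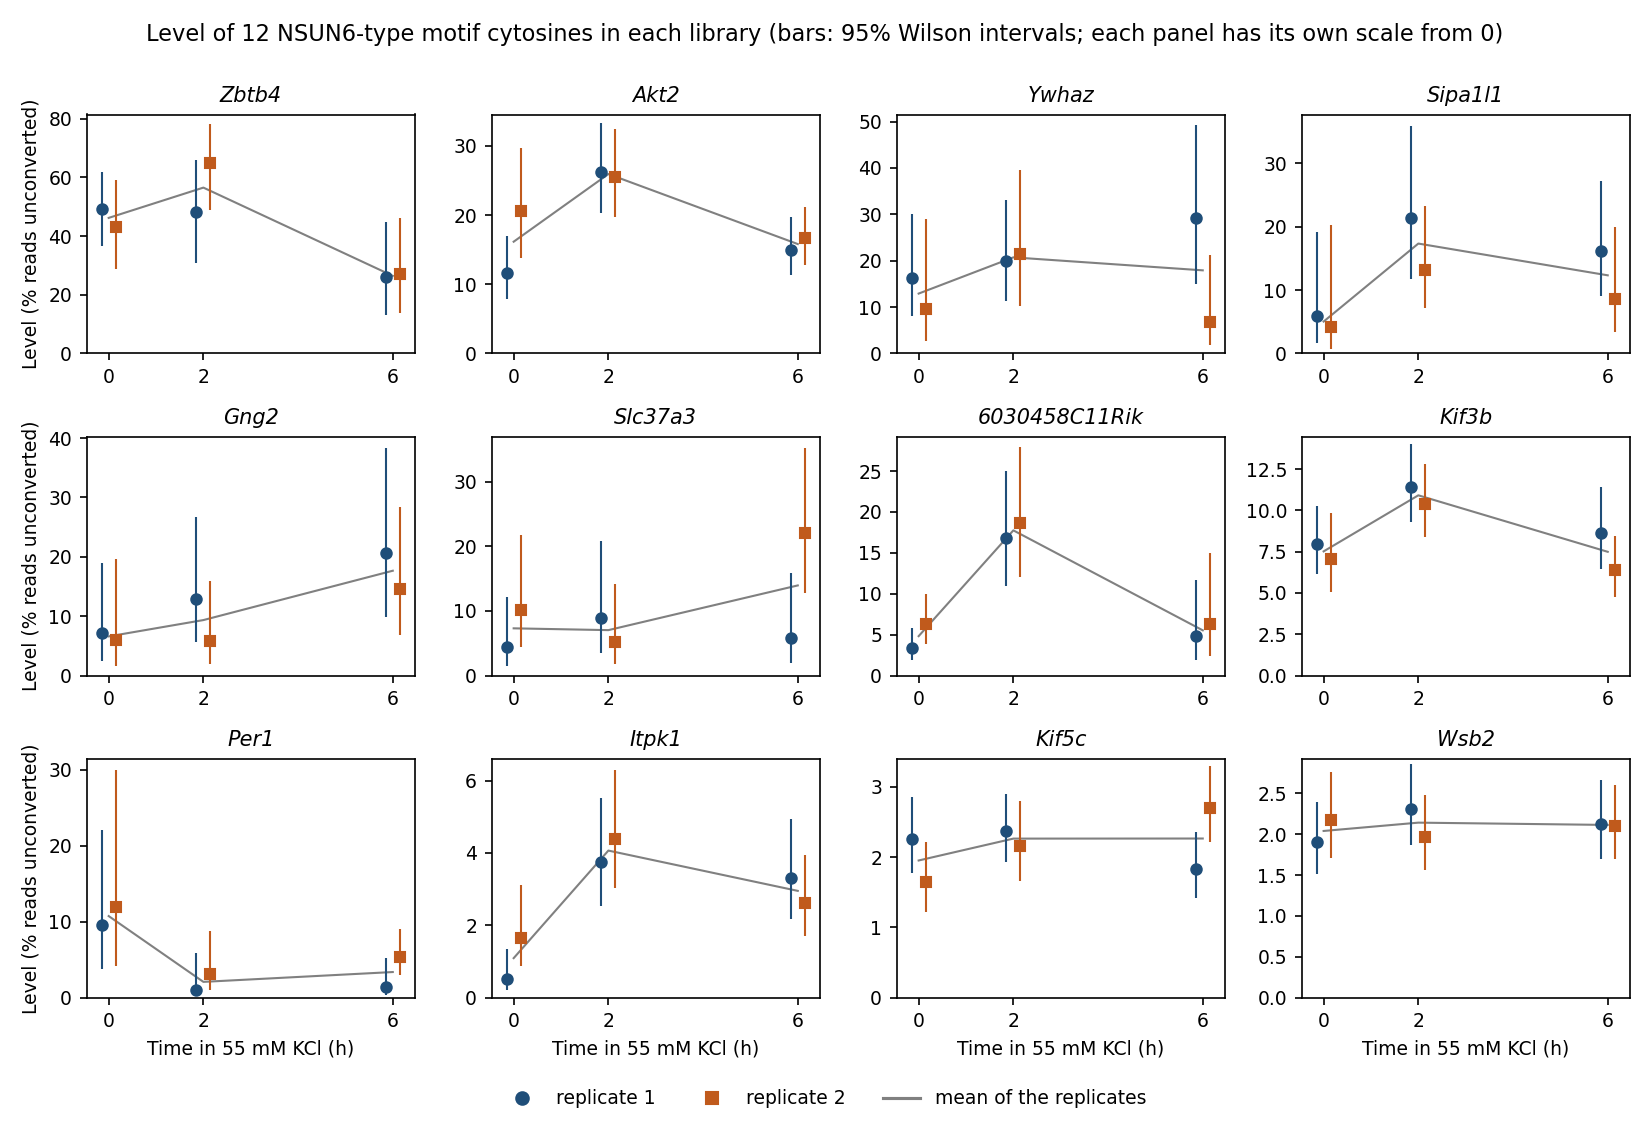
Methylation level (vertical axis, % of reads unconverted, own scale from 0 in each panel) at 0, 2 and 6 h of KCl (horizontal axis) of 12 motif cytosines. Circles and squares are replicates 1 and 2 with 95% Wilson intervals for counting error, and the grey line joins the means. The 2 h replicates of Akt2, 6030458C11Rik and Kif3b are above all others, Per1 is highest and Itpk1 lowest at 0 h, and Kif5c and Wsb2 stay near 2.16% and 2.10%.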

How the data were processed

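RNA was read in 6 libraries. Per the study's methods, the authors trimmed reads, aligned them to the mouse genome GRCm38 (mm10) with meRanTK and called cytosines with meRanCall. The submitters' processing notes also name R 4.1.1. Each deposited list gives, per cytosine, whole-number counts of coverage, unconverted reads and mismatches, and the level as a fraction. Lists held cytosines covered by at least 10 reads with at least 1 unconverted read. Levels were recomputed here as unconverted reads over coverage without mismatches, which matched the deposited fraction within 0.0005. A library's median coverage was 324 to 480 reads, and without molecular identifiers all intervals cover counting error only.

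The members and lists were chosen with earlier results of these data known. The rule for named sites took members with a mean level of 10% or more, called members, and the 3 just below 10%. Other members named were chosen after their values were seen. A result for 1 further member is not reported here. Segments came from GENCODE M21 (GRCm38), and pairing from ViennaRNA 2.7.2. Fisher's exact test and the permutation tests used Python 3.11.15 with scipy 1.17.1, and limma 3.58.1 (R 4.3.3) was fitted on log2((unconverted + 0.5)/(converted + 0.5)). The differential tests were tested on simulated data for 0 h against 2 h: where simulated replicates varied beyond read sampling, Fisher's exact test and the Cochran-Mantel-Haenszel test called many unchanged sites, and limma recovered few changed sites without such variation and none with it. Alternatives were the level and coverage minimums, isolated cytosines, leaving out each library, and the replicate number as a block.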

Additional observations from a re-analysis of the deposited data

How the results depend on the processing

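The difference in share at 10% or more between CTCCA and CTCCG, 0.0417 percentage points, became -0.101 at a level threshold of 5%, and 0 with at least 1000 reads, where both shares were 0. It was 0.0893 with at least 50 reads and 0.050 for cytosines covered in at least 3 libraries, both past the threshold (adjusted p = 0.0312 in the exact permutation test). The difference to CTCCT, -0.933 points, turned to 0.243 among isolated cytosines and to 0 with at least 1000 reads, and was -0.602 with 50 reads and -0.589 in at least 3 libraries (adjusted p = 0.0312, exact). Leaving out a library gave 0.0255 to 0.0836 for CTCCG and -0.965 to -0.906 for CTCCT. With the replicate numbers as a block, the 2 numbers gave 0.00168 and 0.0818 for CTCCG and -0.971 and -0.894 for CTCCT.

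The 3 calls from 0 h to 2 h became 1 at a minimum level of 10% or a difference of at least 10 points, 0 in limma with or without the replicate block, and 1 to 2 without a library. The 4 calls from 2 h to 6 h became 2 at 10%, 0 in limma, and 1 to 2 without a library. From 0 h to 6 h, the 2% minimum added 1 call, Itpk1 (1.86 points, adjusted p = 0.00612 by Fisher's exact test), and leaving out a library gave 0 to 0. The block in the Cochran-Mantel-Haenszel test gave 4, 0 and 4 calls. Deviations of same-numbered replicates correlated at 0.169, -0.0439 and -0.0439 over 2211 cytosines, so the numbers were not taken to pair the samples.

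Without a library, differences that were not called changed sign as follows, in percentage points. From 0 h to 2 h the ranges were -0.719 to 6.22 for Gng2, -3.17 to 2.62 for Slc37a3 and -5.16 to 1.13 for Usmg5, an ATP synthase subunit gene with a member at 5.69%. From 0 h to 6 h they were -4.81 to 4.13 for Akt2, -6.23 to 16.3 for Ywhaz, -1.43 to 14.7 for Slc37a3, -0.740 to 2.16 for 6030458C11Rik, -1.15 to 1.10 for Kif3b and -4.84 to 3.81 for Usmg5. From 2 h to 6 h they were -14.0 to 8.45 for Ywhaz, -1.15 to 15 for Slc37a3, -2.82 to 5.83 for Usmg5 and -0.619 to 3.21 for Per1. The causes were not tested.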

Other observations

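Dcx, which encodes the doublecortin microtubule protein of migrating neurons, had 8 members. The highest of them read 0.735% and 1.02% before KCl, 1.79% and 3.28% after 2 h and 4.76% and 5.62% after 6 h, on 61 to 136 reads, but with neighbours of up to 3.55% it was not alone in its window. With sites down to 2% tested, no difference of this site passed Fisher's exact test, which gave adjusted p-values of 0.937 for 0 h against 2 h, 0.0884 for 0 h against 6 h and 0.658 for 2 h against 6 h. Map2, Map1b and Mapt, the genes of the main neuronal microtubule-associated proteins, held 20, 19 and 12 members.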
